A study of Mus musculus with 18 samples.

Results

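The expression of 9 genes that read or write DNA methylation was followed in colonic epithelial cells (CECs) of mice with and without the reader Mbd2. They were the readers Mbd1, Mbd2, Mbd3, Mbd4, Zbtb33 and Uhrf1 and the DNA methyltransferases Dnmt1, Dnmt3a and Dnmt3b, and were chosen by name. Their gene symbols marked 21 of the 45281 probes on the array. Of these, 11 probes of 7 genes were bright enough to be tested, and 10 probes, among them those of Mbd2 and all 3 of Dnmt3a, were not.

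RNA came from CECs sorted by flow cytometry as positive for EpCAM and negative for leukocyte surface markers, and was read on Illumina MouseWG-6 BeadChips, on which each probe of 50 bases reports the brightness of 1 transcript region. The groups were Naive_WT and Naive_KO, untreated, and DSS_WT and DSS_KO, given 2% dextran sulfate sodium (DSS) in their drinking water, which damages the epithelial barrier and brings on colitis. All mice were on the C57BL/6 background, wild type (WT) animals were littermates, and KO animals were Mbd2-/- in every tissue, so that the immune cells of the same mice also lacked Mbd2. Replicates could pool several animals, and the mice were adult, of matched age and sex. Each DSS group had 1 further array, marked R after the number of another, which was taken as its repeat and averaged with it, so that every group held 4 samples, 16 in all. The labels do not explain the letter.

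DNA methylation is placed on cytosines that precede guanines (CpG). Dnmt3a and Dnmt3b set new marks, and Dnmt1, guided by Uhrf1 to freshly copied DNA, restores them after replication. Proteins with a methyl-CpG-binding domain (Mbd) and the zinc finger protein Zbtb33 (also called Kaiso) bind the marked sites or sit in complexes that do. Mbd2 and Mbd3 are alternative subunits of the NuRD corepressor, a nucleosome-remodeling and histone-deacetylating complex. In the crypts of the colon, new epithelial cells are made by rapidly dividing cells, which copy both their DNA and its methylation.

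On every array, 41.6% to 45.5% of probes were detected, that is, brighter than all but 5% of the array's negative controls. Of the 16 epithelial markers looked up all were detected widely enough to be tested. Their summed normalized signal ran from 144400 to 160100 in Naive_WT, 149900 to 168100 in Naive_KO, 136800 to 153500 in DSS_WT and 141700 to 158000 in DSS_KO. Of 16 leukocyte markers 9 were tested, and their summed normalized signal ran from 1285 to 1733 in Naive_WT, 1536 to 2932 in Naive_KO, 1976 to 4818 in DSS_WT and 3531 to 6307 in DSS_KO. Ptprc and Cd3e, which define leukocytes and T cells, were detected on at most 3 arrays, and Itgam and Itgax, of myeloid cells, on none. The myeloid genes Lyz2, Csf1r, Cd14 and Fcer1g were each detected on 18 of 18 arrays, and Cd3g, another T cell gene, on 6. S100a8 and S100a9 were detected on 5 DSS_WT and 5 DSS_KO arrays, and among naive arrays only S100a8, on 1 of Naive_KO. Cd79b and Nkg7 were detected on 15 and 5 arrays. Of 16 stromal and endothelial markers 15 were tested, with sums of 6962 to 13120 in Naive_WT, 6233 to 7963 in Naive_KO, 10780 to 13810 in DSS_WT and 6018 to 8100 in DSS_KO. In such bulk samples, fewer cells of a type and less RNA per cell cannot be told apart.

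The Mbd2 probe offers no check of the genotype labels, since it did not rise above background in any group. It lies at chr18:70785451-70785500 in the coordinates of the deposited table, which names no genome build. Its raw signal was between 98.2 and 126 intensity units, 0.926 to 1.07 times the mean of the negative controls of the same array. It was detected on 0 of 18 arrays, including all 9 WT arrays, with detection p-values from 0.151 to 0.922. Normalized log2 signals were 4.44 ± 0.14 in Naive_WT and 4.50 ± 0.06 in Naive_KO, and with DSS 4.50 ± 0.13 in WT and 4.40 ± 0.05 in KO (SD, n = 4 each). The 3 Dnmt3a probes were as dim, detected on 0 of 18 arrays each and at 0.874 to 1.05 times the negative control mean. No statement about a change of Mbd2 or Dnmt3a mRNA could be made from these probes. By quantitative PCR the study reports high Mbd2 levels in sorted CECs, so the dim probe does not show that WT CECs lack the transcript.

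**Figure D1:**
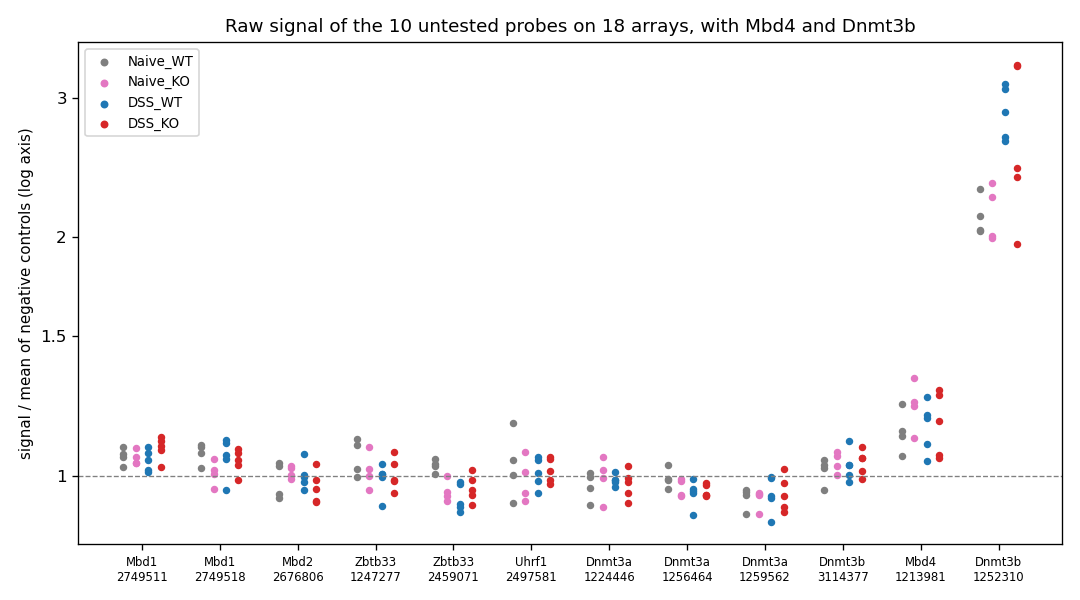
Raw signal divided by the mean of the negative controls of the same array (log axis) for the 10 untested probes on 18 arrays, with the dim Mbd4 probe and the bright Dnmt3b probe for scale. Points are arrays coloured by group, and the dashed line marks the negative control mean. The Mbd2 probe stays between 0.926 and 1.07 in all groups.

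The other untested probes were second probes of genes that were measured elsewhere. Mbd1 had 2 of them, Zbtb33 2, Uhrf1 1 and Dnmt3b 1, each detected on at most 1 array. Their signals never exceeded 1.16 times the negative control mean, whereas a bright probe for the same gene was detected on 18 of 18 arrays. For Zbtb33, Uhrf1, Dnmt3b and Mbd1 the description below therefore rests on the probe or probes that were detected, and says nothing of transcripts that those probes miss.

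The probes on which the results turn are shown so that each value can be tied to the transcript stretch it reports. The first 30 bases of each probe are given. Letters are 5′ to 3′, copied from the deposited table, and the positions are those of that table, without a named build, at chr10:79856678-79856727 (minus strand) for Mbd3, chr6:115794608-115794657 (minus) for Mbd4, chrX:35550055-35550104 (plus) for Zbtb33, chr17:56462798-56462847 (plus) for Uhrf1, chr9:20711687-20711736 (minus) for Dnmt1 and chr2:153513313-153513362 (plus) for Dnmt3b.
Mbd3, ILMN_2730498: tctctgcagccgtggagaagaaccctggtg
Mbd4, ILMN_1213981: gacgtgtcggagcttctcaagcctcttggt
Zbtb33, ILMN_3141993: gcactggcttctttacctctgttagtcata
Uhrf1, ILMN_2517041: ccatttactacaggcagactggacagcaca
Dnmt1, ILMN_2720451: ctgccactgtgcaggtggcaagtgagactt
Dnmt3b, ILMN_1252310: ctcgcaaggtgtgggcttttgtaacttcac

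The first question was whether related readers or the methyltransferases differ when Mbd2 is lost. By limma's moderated test, with p-values adjusted by the Benjamini-Hochberg method over all 21938 tested probes and 0.05 as the threshold, no member probe passed in either condition. With DSS 0 of 11 member probes passed, against 5.63% of all tested probes, and without DSS 0 of 11, against 5.19%. The shares of all probes depended on single samples. With DSS they were 2.12% to 3.67% without any 1 of DSS_WT replicates 2 and 4 and DSS_KO replicates 5, 7 and 8, and without DSS 2.05% to 3.07% without any 1 of Naive_WT replicates 10 and 11 and Naive_KO replicates 13, 14 and 15. At an unadjusted p under 0.05, 1 of 11 member probes was past with DSS, where 22.2% of all probes were, and 2 of 11 without DSS, where 22.8% were. The median absolute log2 difference of the 11 probes was 0.15 with DSS, beside 0.17 over all tested probes, and 0.18 without DSS, beside 0.18.

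**Figure D2:**
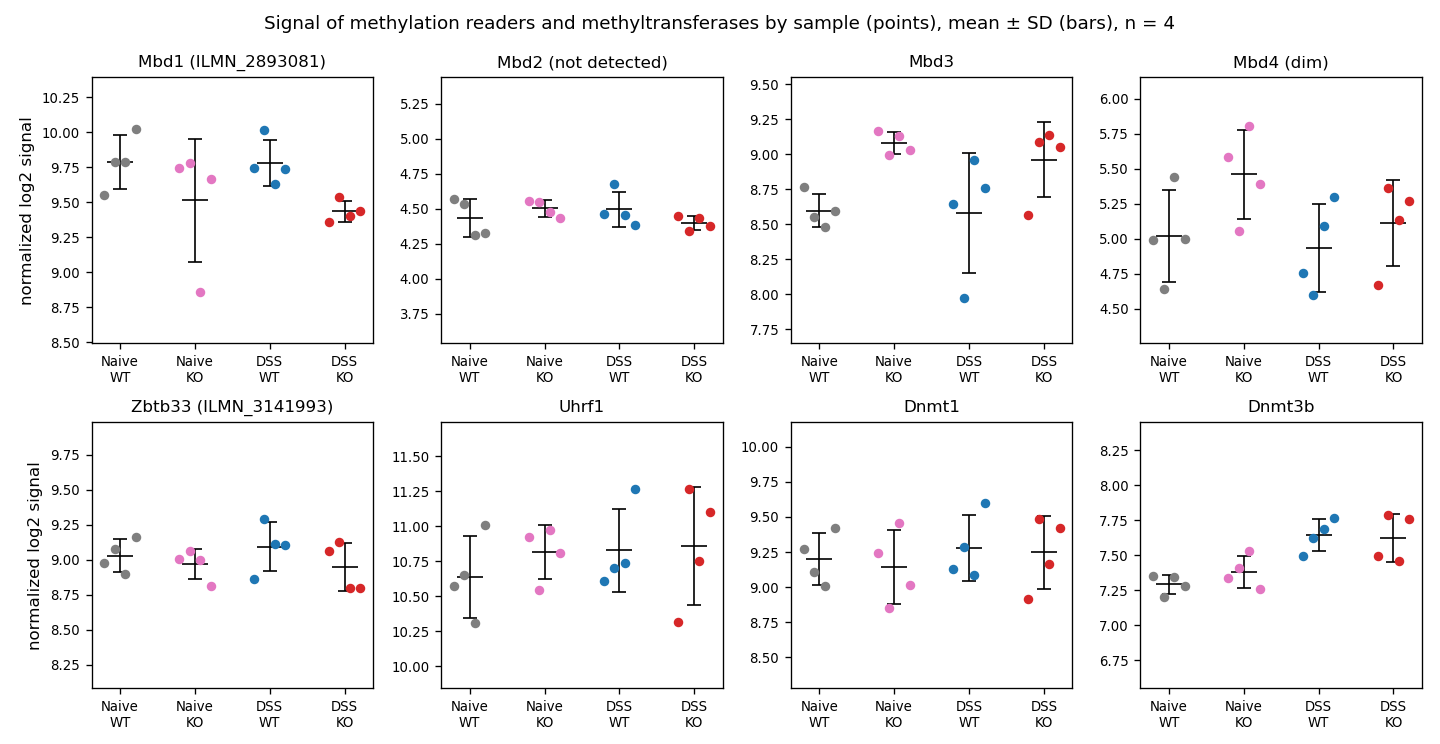
Normalized log2 signal of 1 probe for each of 8 genes by group, with the same span of log2 units on every vertical axis. Points are samples, and bars are the mean ± SD of 4 samples. The naive groups do not overlap for Mbd3, whose genotype difference did not pass the threshold in either condition, and for Dnmt3b the DSS_WT samples lie above all Naive_WT samples, while the DSS_KO and Naive_KO samples overlap.

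Mbd3, the closest relative of Mbd2 and its counterpart in NuRD, had the largest genotype difference among the members detected on all arrays without DSS. Its log2 signals were 8.76, 8.55, 8.48 and 8.59 in Naive_WT and 9.17, 8.99, 9.13 and 9.03 in Naive_KO. They were 8.64, 7.97, 8.96 and 8.76 in DSS_WT and 8.57, 9.09, 9.14 and 9.05 in DSS_KO. The naive groups did not overlap, whereas with DSS 3 of 4 KO samples lay above every WT sample and 1 lay among them.

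The Mbd3 difference, Mbd2-/- minus WT, was 0.48 on the log2 scale without DSS (SE 0.18, 95% interval 0.11 to 0.85, adjusted p = 0.116 by limma). With DSS it was 0.38 (SE 0.18, interval 0.01 to 0.75, adjusted p = 0.216). Neither passed the threshold. The value with DSS leaned on DSS_WT replicate 2 and was 0.18 (adjusted p = 0.604) without it. With the same sample left out, the difference without DSS stayed at 0.48 and had an adjusted p of 0.0409.

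Because the Mbd3 difference had the same sign in both conditions, though it passed in neither, the mean of both genotype effects was also tested in the same fit. This contrast was added after the separate effects had been seen. The adjustment covers the probes and not that choice, so the adjusted p of Mbd3 is not to be taken at face value. In this contrast 1 of 11 member probes passed, Mbd3, against 14.5% of all tested probes. Its mean difference was 0.43 (SE 0.12, interval 0.17 to 0.69, adjusted p = 0.0292 by limma), a fold of 1.35, and 7 of 8 KO samples were above the WT mean of their condition. The difference kept its sign under all 24 alternative settings, from 0.33 to 0.50, but passed the threshold under only 16 of them, with adjusted p from 0.0136 to 0.204. It missed the threshold with arrays scaled to a common median (0.33, adjusted p = 0.204), with no filter on dim probes (adjusted p = 0.0531), and without any 1 of DSS_KO replicates 6, 7 and 8, Naive_WT replicates 10 and 11 and Naive_KO replicate 13 (differences of 0.40 to 0.42, adjusted p from 0.0532 to 0.0583). The leukocyte marker sums given above reached higher in the KO group of each condition, with overlap, and the stromal sums with DSS were lower in the KO group without overlap. In the mean genotype effect 1 of 16 epithelial markers passed as higher and 1 as lower, against 14.5% of all tested probes. The part of any of these marker lists in the genotype differences of Mbd3 and of the other genes named here was not tested.

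Mbd1, which binds methylated CpG and carries further zinc finger domains, ran the other way. Its gene lies on chromosome 18, as does Mbd2, with its brightest probe at chr18:74441969-74442018 in the table's coordinates. On that probe the log2 signals were 9.55, 9.79, 9.79 and 10.03 in Naive_WT and 9.74, 9.78, 8.86 and 9.67 in Naive_KO. With DSS they were 9.74, 10.02, 9.63 and 9.74 in DSS_WT and 9.36, 9.54, 9.41 and 9.44 in DSS_KO, so that every KO sample lay below every WT sample. A second bright probe, 173 bases away by the start positions, gave 7.40, 7.70, 7.20 and 7.69 in Naive_WT, 7.27, 7.34, 6.22 and 7.35 in Naive_KO, 7.48, 8.02, 7.24 and 7.42 in DSS_WT and 6.82, 6.90, 7.06 and 7.44 in DSS_KO. On both probes 8 of 8 KO samples were below the WT mean of their condition.

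With DSS, the Mbd1 differences were -0.35 (SE 0.17, 95% interval -0.71 to 0.02, adjusted p = 0.25 by limma) on the brighter probe and -0.48 (SE 0.24, interval -0.98 to 0.01, adjusted p = 0.241) on the second. Without DSS they were -0.28 (adjusted p = 0.36) and -0.46 (adjusted p = 0.265), and these values hung on Naive_KO replicate 15, without which they were -0.06 (adjusted p = 0.832) and -0.18 (adjusted p = 0.632). Averaged over both conditions they were -0.31 (interval -0.57 to -0.05, adjusted p = 0.0962) and -0.47 (interval -0.82 to -0.12, adjusted p = 0.0686), and -0.20 (adjusted p = 0.119) and -0.33 (adjusted p = 0.096) without replicate 15. Both mean differences were negative under all 24 settings. They passed the threshold with arrays scaled to a common median, at -0.41 (adjusted p = 0.048) and -0.55 (adjusted p = 0.0444), a setting that moved the median of all tested probes to -0.08 in the same contrast. The 2 dimmer Mbd1 probes, detected on 7 and 4 of 18 arrays and on none of Naive_KO, gave mean differences of -0.15 (adjusted p = 0.218) and -0.04, which did not pass either.

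**Figure D3:**
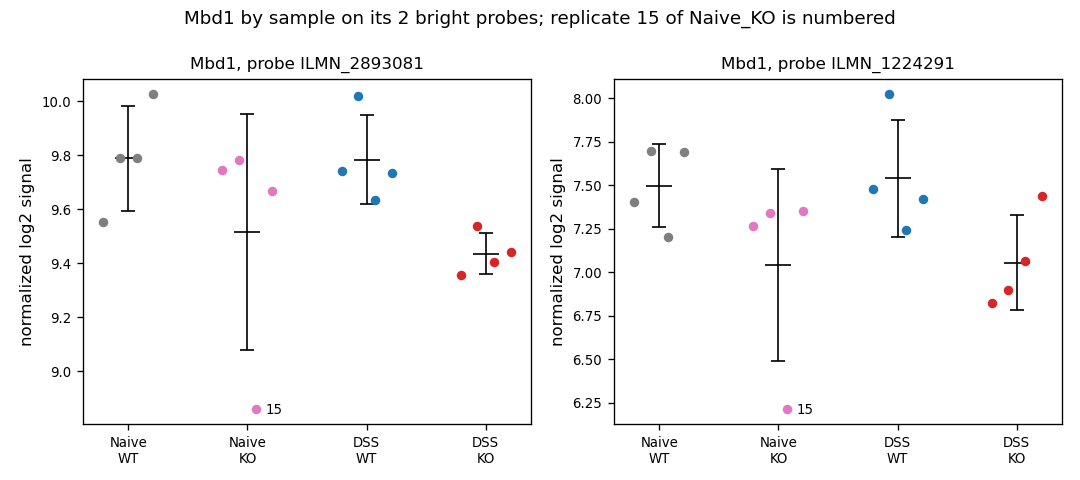
Normalized log2 signal of Mbd1 on its 2 bright probes by group. Points are samples, bars the mean ± SD of 4 samples, and the number marks Naive_KO replicate 15, at 8.86 and 6.22. The other Naive_KO samples overlap Naive_WT on both probes, and on the brighter probe all DSS_KO samples lie below all DSS_WT samples.

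Groups that did not overlap were counted for the members and for all probes. With DSS they occurred for 2 of 11 member probes, the brightest and a dim Mbd1 probe, against 14.7% of all tested probes. The dim probe was detected on 5 DSS_WT arrays, 1 DSS_KO array and 1 Naive_WT array, so it entered the test through the group in which it was high, and nothing is read from it. Without DSS they occurred for 1 of 11, Mbd3, against 12.3%.

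Mbd4, a glycosylase that removes thymine mispaired with guanine at CpG sites, was dim. It was detected on 13 of 18 arrays, with log2 signals of 4.64 to 5.44 in Naive_WT, 5.06 to 5.81 in Naive_KO, 4.60 to 5.30 in DSS_WT and 4.67 to 5.36 in DSS_KO, so the groups overlapped in both conditions. The genotype difference was 0.44 without DSS (interval 0.01 to 0.88, adjusted p = 0.212 by limma) and 0.18 with DSS (interval -0.26 to 0.61, adjusted p = 0.676). At this level background makes up most of the raw signal, and the offset of 16 added before the log understates the fold. Over 25 alternative settings the Mbd4 difference ran from 0.12 to 0.58 without DSS and from 0.02 to 0.32 with DSS, and never passed the threshold.

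Zbtb33 varied little on its bright probe. Its signals ran from 8.90 to 9.16 in Naive_WT, 8.81 to 9.06 in Naive_KO, 8.86 to 9.29 in DSS_WT and 8.80 to 9.13 in DSS_KO, and its SD within groups, 0.15, was smaller than that of all but 13.3% of tested probes. The genotype difference was -0.06 (interval -0.31 to 0.19) without DSS and -0.15 (interval -0.40 to 0.10) with DSS, so that the intervals run from 0.807 to 1.14 and from 0.76 to 1.07 times the WT level. A dim second probe, detected on 8 of 18 arrays, disagreed in sign without DSS (0.42, adjusted p = 0.311), with 1 Naive_KO sample at 6.09 and the others from 4.65 to 5.51. The 2 Zbtb33 probes start 88 bases apart, so they report neighbouring stretches of the transcript.

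Uhrf1, which recognizes hemimethylated CpG after replication, had groups that overlapped in every comparison. Its log2 signals were 10.58, 10.65, 10.31 and 11.01 in Naive_WT, 10.93, 10.54, 10.97 and 10.81 in Naive_KO, 10.61, 10.70, 10.74 and 11.27 in DSS_WT and 10.32, 11.27, 10.75 and 11.10 in DSS_KO. The genotype difference was 0.18 (interval -0.25 to 0.60, adjusted p = 0.643 by limma) without DSS and 0.03 (interval -0.40 to 0.46, adjusted p = 0.952) with DSS.

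Among the writers, Dnmt1 read 9.27, 9.11, 9.01 and 9.42 in Naive_WT, 9.24, 8.85, 9.46 and 9.02 in Naive_KO, 9.13, 9.29, 9.08 and 9.60 in DSS_WT and 8.92, 9.49, 9.16 and 9.42 in DSS_KO. The genotype difference was -0.06 (interval -0.40 to 0.29, adjusted p = 0.869 by limma) without DSS and -0.03 (interval -0.37 to 0.32, adjusted p = 0.943) with DSS. Dnmt3b had the narrowest intervals of the bright members, 0.09 (-0.14 to 0.32, adjusted p = 0.669) without DSS and -0.02 (-0.24 to 0.21, adjusted p = 0.949) with DSS. Without DSS the intervals ran from 0.908 to 1.24 times the WT level for Dnmt3b, from 0.755 to 1.22 times for Dnmt1 and from 0.84 to 1.52 times for Uhrf1.

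**Figure D4:**
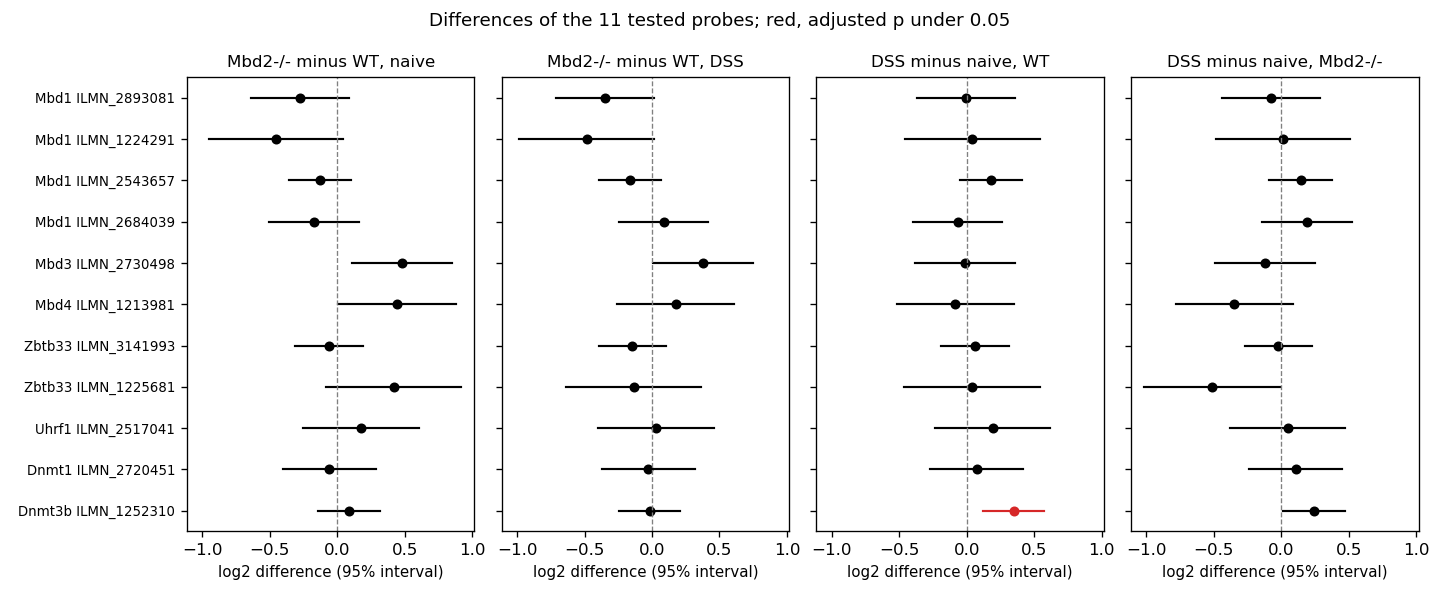
Log2 differences of the 11 tested probes with 95% intervals in 4 comparisons, from 1 limma fit to 16 samples. Red marks an adjusted p under 0.05, which only Dnmt3b reached, in DSS_WT against Naive_WT (0.35).

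The second question was whether DSS colitis changes these genes. In WT mice 1 of 11 member probes passed, Dnmt3b, against 10.5% of all tested probes, and in Mbd2-/- mice 0 of 11, against 9.42%. The shares of all probes were 5.55% to 6.93% in WT without any 1 of DSS_WT replicates 3 and 4 and Naive_WT replicate 12, and 4.99% to 6.09% in Mbd2-/- mice without any 1 of DSS_KO replicates 5 and 8 and Naive_KO replicates 14 and 16. In Mbd2-/- mice 2 of 11 were past an unadjusted p of 0.05 beside 24.5% of all. Groups did not overlap for 1 of 11 member probes in WT, again Dnmt3b, against 17% of all, and for 0 of 11 in Mbd2-/- mice, against 15.9%. The median log2 difference of the members was 0.04 in WT and 0.01 in Mbd2-/- mice, beside -0.01 and -0.02 over all tested probes.

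Dnmt3b, a de novo methyltransferase, was higher in DSS-treated CECs. Its log2 signals were 7.35, 7.20, 7.34 and 7.28 in Naive_WT and 7.50, 7.62, 7.69 and 7.76 in DSS_WT, groups that did not overlap. They were 7.34, 7.41, 7.53 and 7.26 in Naive_KO and 7.50, 7.79, 7.46 and 7.76 in DSS_KO, where 2 of 4 DSS samples lay above every naive sample. The rise was 0.35 in WT (SE 0.11, 95% interval 0.12 to 0.58, adjusted p = 0.0489 by limma), a fold of 1.27, and the difference in Mbd2-/- mice was 0.24 (interval 0.02 to 0.47, adjusted p = 0.175).

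The call in WT sat at the threshold. It was lost, at adjusted p values from 0.0511 to 0.137, when any 1 of 13 samples was left out, namely DSS_WT replicates 2, 3 and 4, DSS_KO replicates 5, 6 and 8, all 4 of Naive_WT and Naive_KO replicates 13, 14 and 16, with differences of 0.31 to 0.37. It was also lost in a fit to only both WT groups (adjusted p = 0.0747). The difference between the responses of both genotypes was -0.11 (interval -0.43 to 0.22, adjusted p = 0.849), so the response was not shown to differ by genotype.

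The mean over both genotypes was a contrast likewise added after the separate effects had been seen, a choice that the adjustment does not cover. In it 1 of 11 member probes passed, Dnmt3b, against 20.8% of all tested probes. Its mean rise was 0.30 (SE 0.08, interval 0.13 to 0.46, adjusted p = 0.0117 by limma), 8 of 8 DSS samples were above the naive mean of their genotype, and it passed under all 24 alternative settings, with adjusted p from 0.00111 to 0.0295. Its size ranged over these settings from 0.18 without background correction to 0.61 with arrays scaled to a common median, and in WT alone from 0.21 to 0.66 under the same settings. The arrays averaged as repeats differed by at most 0.13 on this probe. Of the 4 leukocyte markers detected on every array 3 rose with DSS in each genotype, with median differences of 1.60 in WT and 1.28 in Mbd2-/- mice. Of the 14 stromal and endothelial markers detected on every array 6 rose in WT (median 0.70) and 0 passed in Mbd2-/- mice (median 0.08). The part of either in the DSS differences of Dnmt3b and of the other genes named here was not tested.

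The size of every DSS difference depended on the scaling, and raw background differed between treated and naive arrays. The mean of the negative controls was 113.3 to 133.8 on the DSS arrays not marked R and 100.5 to 111.4 on the naive arrays. It was 113.4 on 4R and 103.4 on 5R. The part of this background in the DSS differences was not tested. With arrays scaled to a common median in place of quantile normalization, the median of all tested probes moved to 0.24 in WT and 0.23 in Mbd2-/- mice, and 93% of the probes past the threshold in WT were higher with DSS, beside 54.6% under quantile normalization. Relative to that shift Dnmt3b was higher by 0.42 in WT and 0.32 in Mbd2-/- mice. The signs of the WT differences of Mbd3 and the brightest Mbd1 probe, near 0 under quantile normalization, turned from negative to positive under this scaling, so no direction is given for them. In Mbd2-/- mice the differences of Mbd3, the brightest Mbd1 probe and the bright Zbtb33 probe turned likewise, to 0.25, 0.30 and 0.34, and that of Dnmt1 was 0.48.

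No other member passed the threshold with DSS under quantile normalization. With arrays scaled to a common median the bright Zbtb33 probe passed in WT (0.46, adjusted p = 0.0324), and the WT differences of Uhrf1 and Dnmt1 were 0.59 (adjusted p = 0.0841) and 0.47 (adjusted p = 0.121). Under that scaling 5273 of all tested probes passed in WT, beside 2295 in the fit reported. Under quantile normalization the WT differences were 0.19 for Uhrf1 (interval -0.24 to 0.62, adjusted p = 0.588), 0.07 for Dnmt1 (-0.27 to 0.42, adjusted p = 0.813), -0.02 for Mbd3 (-0.39 to 0.36, adjusted p = 0.967), -0.01 for the brightest Mbd1 probe (-0.37 to 0.36, adjusted p = 0.987) and 0.06 for the bright Zbtb33 probe (-0.19 to 0.31, adjusted p = 0.782). Over 25 alternative settings the Uhrf1 difference in WT ran from 0.05 to 0.59. In Mbd2-/- mice the probes of Uhrf1, Dnmt1, Mbd3, Mbd1 and Zbtb33 just named ranged from -0.12 for Mbd3 to 0.11 for Dnmt1 under quantile normalization. Mbd4 gave -0.08 in WT (interval -0.52 to 0.35, adjusted p = 0.837) and -0.35 in Mbd2-/- mice (interval -0.78 to 0.09, adjusted p = 0.312). The dim Zbtb33 probe gave -0.51 in Mbd2-/- mice (adjusted p = 0.194 by limma). Over 24 alternative settings its difference ran from -0.73 to -0.15. It passed in 1 of them, without Naive_KO replicate 13 (-0.73, adjusted p = 0.0499).

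Whether Mbd2 loss acts on the members differently with and without DSS was tested by the interaction term. In it 0 of 11 member probes passed, against 0% of all tested probes, and 0 of 11 were past an unadjusted p of 0.05, beside 10.7% of all. The intervals of the interaction were wide, from -0.63 to 0.42 for Mbd3 and from -0.75 to 0.46 for Uhrf1. By the stricter screen that the study's methods use, an adjusted p under 0.01 with an absolute log2 difference of 1 or more, 0 of 11 member probes were called in any comparison, against 0.862% of all tested probes for genotype with DSS, 0.656% for genotype without DSS, 1.74% for DSS in WT, 1.72% for DSS in Mbd2-/- mice and 0% for the interaction.

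The group means of Uhrf1 and Dnmt1, partners in copying methylation after replication, lay closer together than the SD within groups, 0.31 and 0.24, and within groups both varied together. After group means had been subtracted, their signals correlated over 16 samples with Pearson's r of 0.904 (permutation p = 0.00011 with values permuted within groups, adjusted p = 0.00016 over 3 relations) and Spearman's rho of 0.903 (permutation p = 0.00021, adjusted p = 0.00031). Without the 2 samples farthest from the median of Uhrf1, DSS_KO replicate 5 and DSS_WT replicate 4, r was 0.859. The pair spans DSS_KO replicate 5, low for both, and DSS_WT replicate 4, high for both.

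Both also followed the genes of cell division. Against the mean of 23 replication and mitosis genes, such as Mcm helicase subunits and mitotic kinases, r was 0.92 for Uhrf1 (permutation p = 1e-04, adjusted p = 0.00016; rho 0.935, adjusted p = 3e-04) and 0.811 for Dnmt1 (permutation p = 0.0012, adjusted p = 0.0012; rho 0.835, adjusted p = 0.00065). Without DSS_KO replicates 5 and 6, farthest from the median of that mean, r was 0.866 and 0.743. Which samples shared a chip or a sort is not given in the labels, so the part of either in these relations was not tested. Of the 23 genes 0 passed by limma for genotype or for DSS within a genotype, where 5.19% to 10.5% of all tested probes did. In the mean DSS effect 1 of 23 passed, the mitotic kinase Aurka (0.49, adjusted p = 0.0299), against 20.8% of all.

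**Figure D5:**
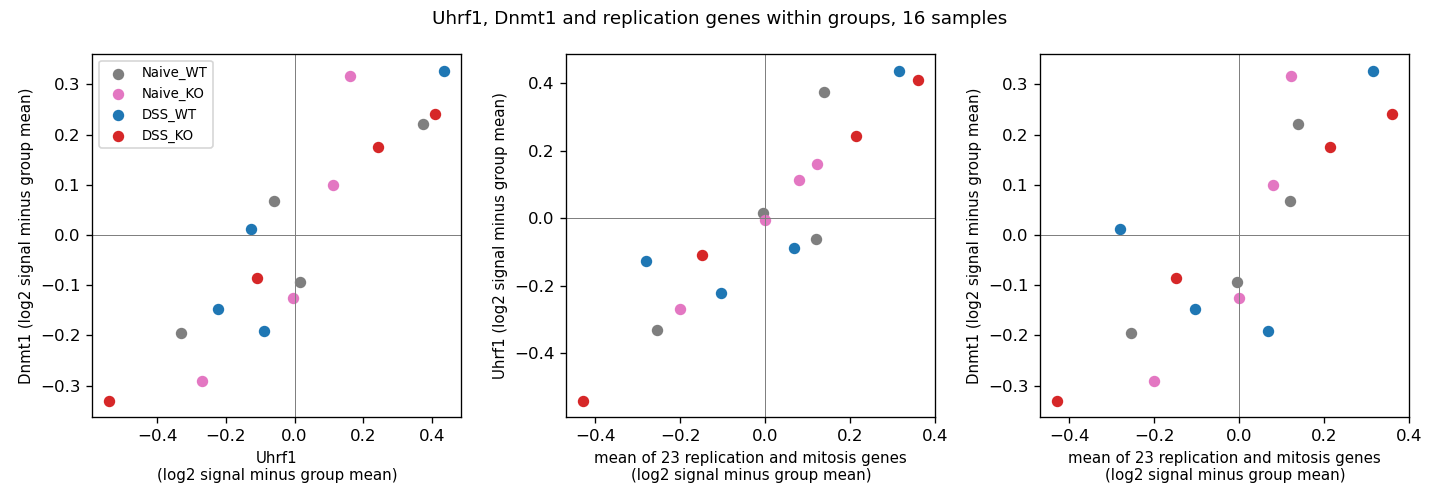
Log2 signals of Uhrf1, Dnmt1 and the mean of 23 replication and mitosis genes, each minus its group mean, over 16 samples coloured by group. The points rise together in all 3 panels, with r of 0.904, 0.92 and 0.811.

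The genes most like each member over the 16 samples were named by their correlation, as a description in which group differences and shared arrays both count. Nearest to Uhrf1 were Mcm4 (r = 0.947) and Bub1b (0.892), and nearest to Dnmt1 were Mcm6 (0.896) and Brrn1 (0.886), all of them genes of replication or mitosis. Dnmt3b was nearest to Rasa3 (0.932) and Dbf4 (0.916), the activating subunit of a replication kinase. Mbd3 was nearest to Tbrg4 (0.932) and Wdr4 (0.927), Mbd1 to Cldn12 (0.932) and Pgghg (0.899), Mbd4 to Sumf2 (0.849) and Slc43a1 (0.841), and Zbtb33 to Tmod4 (0.829) and Cdkn2aip (0.795). Among the members themselves, with group means subtracted, no pair came near Uhrf1 and Dnmt1, the next being Dnmt1 with Dnmt3b at 0.633 and Mbd4 with Dnmt3b at 0.631.

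Since Uhrf1 and Dnmt1 moved together, their promoters were searched for the letters that E2F factors, regulators of replication genes, are known to prefer. RefSeq promoter windows (GRCm38.p6, 250 bases before to 50 after a start) matched 7 of 9 members, with 12 windows, and the motifs TTTCCCGC, TTTCGCGC, TTTGCCGC and TTTGGCGC were searched on both strands. At least 1 of the 4 was held by a window of Uhrf1 and by 1 of Dnmt1 and by no window of the other 5 genes, beside 2.3% of 32851 windows of all genes. TTTCGCGC, found in both, is held by 0.32% of all windows. Counted by gene, 7 of 20 replication and mitosis genes with a window held at least 1 of the 4 motifs, beside 2.6% of 27025 genes. A match is a run of letters and not evidence that a factor binds. The stretches of 30 bases around TTTCGCGC are shown 5′ to 3′ on the gene's strand, with the motif in capitals, at chr17:56304117-56304146 (plus) for Uhrf1 and chr9:20952824-20952853 (minus) for Dnmt1, where it reads in the opposite orientation.
Uhrf1: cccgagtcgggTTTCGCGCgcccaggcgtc
Dnmt1: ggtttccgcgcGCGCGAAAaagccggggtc

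The same windows describe how much CpG the members' own promoters hold. The window with the most CpG had 47 for Dnmt3a, 34 for Zbtb33, 33 for Uhrf1, 33 for Dnmt1, 30 for Dnmt3b, 25 for Mbd4 and 22 for Mbd3, beside a median of 7 over all windows. Even the lowest of these, for Mbd3, had more CpG than 76.9% of all windows. Taking the richest window of a gene raises these values. Further windows held 12 CpG for Uhrf1, 12 and 2 for Dnmt1 and 46 and 18 for Dnmt3a, so not every member window was rich in CpG. The array carries no measure of methylation at these promoters.

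Other parts of the methylation machinery were described from lists of named genes, each by its brightest tested probe. Their counts are to be read beside the shares of all tested probes past the same threshold, 10.5% and 9.42% for DSS in WT and Mbd2-/- mice, 5.63% and 5.19% for genotype under DSS and in naive mice, and 14.5% for the mean genotype effect. Of 7 methyltransferase cofactors detected on every array 0 passed by limma in any of these comparisons. Dnmt3l, a catalytically inactive partner of the de novo enzymes, was detected on 5 DSS_WT arrays, 4 DSS_KO arrays and 0 of 8 naive arrays, so its probe entered the test through the groups in which it was high, and its values are a description. Measured means were 4.65 in Naive_WT and 5.46 in DSS_WT, which is at least 1.48-fold higher when set against the lowest signal among detected probes of each naive array. Of 8 tested methyl donor genes 1 rose with DSS, Shmt2 of mitochondrial one-carbon metabolism, by 0.82 in WT (adjusted p = 0.00809) and 0.73 in Mbd2-/- mice (adjusted p = 0.0154).

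Of 8 tested genes linked to DNA demethylation 1 passed for genotype with DSS and 0 without DSS. Gadd45a, a stress-induced gene implicated in active demethylation, was lower in DSS_KO than in DSS_WT by 0.80 on the log2 scale (difference -0.80, SE 0.17, adjusted p = 0.0139 by limma). Without DSS its difference was -0.39 (adjusted p = 0.196). The mean difference over both conditions passed for Gadd45a (-0.59, adjusted p = 0.00483) and for Ahcy, which clears the product inhibitor of methyltransferases (-0.30, adjusted p = 0.0104). Ahcy missed the threshold in each condition, at -0.26 with DSS (adjusted p = 0.129) and -0.34 without (adjusted p = 0.0613).

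Of 9 tested NuRD partner genes, 1 passed for genotype with DSS, Rbbp4, a histone-binding subunit, which was higher in DSS_KO by 0.66 (adjusted p = 0.0123 by limma), and 0 passed without DSS. With DSS in WT 3 of 9 passed, Mta2 up by 0.64 (adjusted p = 0.0147), Mta1 up by 0.45 (adjusted p = 0.0474) and Rbbp4 (difference -0.59, adjusted p = 0.0147), and in Mbd2-/- mice Mta2 alone, up by 0.68 (adjusted p = 0.011).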

How the data were processed

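The deposited table holds, per the file headers, a mean bead intensity for each probe and array that the authors exported without normalization or background subtraction, and a deposited detection p-value from the array's negative controls. Bead numbers and standard errors were not used. Signals were corrected with 936 negative controls (neqc, offset 16), quantile-normalized and log2-transformed in limma 3.58.1 (R 4.3.3). Probes with detection p under 0.05 on at least 4 of 18 arrays, 21938 of 45281, were tested. Array 4R was averaged with 4 and 5R with 5, although the labels do not explain the R and the study counts as many biological replicates per genotype with DSS as there are arrays, because their log2 values differed with an SD of 0.194 and 0.236, less than any other pair of their group (at least 0.334 and 0.287). A single limma fit to all 16 samples gave every comparison, p-values were adjusted within each, and intervals are 95%. Whether samples came from separate mice is not stated for each, so p-values measure the spread between these samples. Named genes are all members, genes past the threshold in the methylation and NuRD lists (for DSS the 3 largest of a list) and the 2 nearest patterns of each member. The rule also covered the cell type and housekeeping lists, but cell type markers are given as counts and sums, housekeeping genes are not reported here, and the markers named for their detection were chosen after their values were seen. Other genes were named through Entrez identifiers (65.3% of probes matched). The members and lists were chosen with earlier results of these data known. A list of further methyl-CpG readers is not reported here. The fit was tested on simulated data. The number of arrays limits the precision. Alternatives were no or another background correction, median scaling, no or a stricter filter, 18 separate arrays, 4R and 5R left out, only the groups compared, array weights, and each sample left out.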

Additional observations from a re-analysis of the deposited data

Results flagged for a closer look

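In 3 of 44 groups of 4 values (11 tested probes in 4 groups) 1 sample stood apart from the other samples by Dixon's ratio at its 95% critical value, and chance marks about 1 in 20 such groups. Naive_KO replicate 15 was low for Mbd1 on both bright probes, at a log2 signal of 8.86 where the other Naive_KO samples were between 9.67 and 9.78, and at 6.22 where they were between 7.27 and 7.35. The same sample was the highest of Naive_KO for Mbd4 (5.81) and for the dim Zbtb33 probe (6.09). DSS_KO replicate 5 was low for Mbd3, at 8.57 where the other DSS_KO samples were between 9.05 and 9.14, and was also the lowest of its group for Uhrf1 (10.32) and Dnmt1 (8.92).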

How the results depend on the processing

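No paired analysis was possible because the groups share no replicate numbers. Counts are of the 11 tested member probes past the adjusted threshold. For genotype with DSS and for the interaction the count of 0 held under every alternative run. For genotype without DSS it was 0 under all but the fits that left out 1 sample, which gave 0 to 1. For DSS in WT (1 in the fit reported) it was 2 with median scaling, where the bright Zbtb33 probe joined Dnmt3b, 0 in the fit to only the groups compared, and 0 to 1 with 1 sample left out. Median scaling put 5273 of all tested probes past in this comparison, beside 2295 in the fit reported. For DSS in Mbd2-/- mice (0) the member count was 1 with median scaling and 1 with array quality weights, Dnmt3b in both, and 0 to 1 with 1 sample left out. Of all tested probes 4560 passed here with median scaling, beside 2066 in the fit reported. The mean genotype effect (1, added after seeing the data) had 2 with median scaling, both Mbd1 probes and not Mbd3, 0 with no filter, 2 with 18 separate arrays, Mbd3 and Mbd1, and 0 to 1 with 1 sample left out. There median scaling put 2710 of all tested probes past, beside 3189 in the fit reported. The mean DSS effect (1, also added) had 5 with median scaling, Dnmt3b, Dnmt1, Uhrf1, Mbd1 and Zbtb33, and 1 elsewhere. Median scaling moved the median of all probes to 0.24 in this contrast. It put 9149 of all tested probes past, beside 4565 in the fit reported. The cause of the other changes was not tested. All 3 correlations kept their sign and their side of the threshold without background correction, at 0.904, 0.919 and 0.802. Signal over background limits Mbd4 and the dim second probes that were tested, on which only large changes could have been seen. The untested probes, among them those of Mbd2 and Dnmt3a, allow no statement about a change of any size.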
